A study of Mus musculus with 2 samples.

Results

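The 8 genes described here encode the metallothioneins Mt1 and Mt2, the ferritin chains Fth1 and Ftl1, the haem oxygenase Hmox1, the iron exporter Slc40a1, the transferrin receptor Tfrc and the phagosomal metal transporter Slc11a1. They were taken by symbol, 8 of 31054 rows of each count matrix, and 8 of 8 were found in both libraries. Each matrix held unique molecular identifiers (UMIs) per gene and cell from 10x Genomics droplets. The first library came from a breast tumour grown from transplanted Met-1 cells, a mouse mammary cancer line, and the second from a breast tumour of animals crossed to PyMT mice, in which the polyoma middle T antigen drives mammary cancer. The hosts of both were C57BL/6 inAd-Chaser-mTmG mice, which carry an Adiponectin-rtTA driver, a TRE-Cre transgene and the Rosa26 mT/mG reporter. In these mice doxycycline turns the membrane reporter of adipocytes from tdTomato to EGFP for good, so that descendants of labelled adipocytes stay green, and in both libraries the cells with EGFP and without tdTomato had been sorted. The series text names EO771 as the implanted line where the sample label says Met-1, and the sample label is followed. Age, time of the pulse and number of mice are not given in the sources used here. The label depends on rtTA being made in adipocytes alone, and the sort had been made on cells isolated as tumour fibroblasts.

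Metallothioneins are small cysteine-rich proteins that bind zinc and copper, and the factor MTF1 raises their transcription when free zinc rises. Ferritin is a shell of heavy and light chains that stores iron. The heavy chain oxidises the iron that enters. Iron regulatory proteins bind a hairpin, the iron responsive element, in the RNA of several of these genes. They block translation where the hairpin lies before the coding sequence, as in ferritin and ferroportin, and protect the RNA where hairpins lie after it, as in the transferrin receptor. Macrophages take up dying red cells, free the iron from haem with HMOX1 and export it through ferroportin, the product of Slc40a1.

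With 1 library per group there was no test, and neither tumour had another library against which a difference could be checked. Parentheses hold 95% intervals of counting error only, and CPM are the UMIs of a gene per 1000000 UMIs, summed over the cells of a class. Of the barcodes, 2112 of 2451 in the Met-1 transplant and 588 of 619 in the PyMT tumour passed the filters, with medians of 7684 and 3462 UMIs and 0 barcodes in common. Classes were set from marker UMIs alone. They held 230 fibroblasts in Met-1 and 11 in PyMT, 808 and 185 macrophages with C1q genes, 37 and 173 neutrophils, 307 and 38 T cells, 217 and 22 B cells, and 33 and 90 luminal cells. Another 132 mural cells, 131 natural killer (NK) cells and 20 monocytes of Met-1 had 0, 4 and 2 counterparts in PyMT, so their levels are given for Met-1 alone. Most kept cells of both libraries were thus leukocytes by their markers, although cells with EGFP and without tdTomato had been sorted. Whether cells of any class descended from adipocytes was not tested. Markers of mature adipocytes were close to 0, with 5 UMIs of Adipoq in 1 Met-1 cell and 0 in PyMT. Red cell markers were close to 0 as well, at 0.657 CPM for Met-1, against 7.46 CPM for PyMT over 5 genes, which bears on Hmox1 and the ferritins because red cells carry haem and ferritin RNA.

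The iron responsive elements are shown because 4 of the 8 genes carry them. A script searched the untranslated regions for the 6-base loop CAGTGN with the 5 bases before it able to pair with the 5 bases after it and a C just before that stem, in GENCODE M21 transcripts on GRCm38, the assembly that the submitters' notes call mm10. Capitals mark the loop, and each sequence is 30 bases, 5′ to 3′ on the strand of the gene.
Fth1 5′ UTR: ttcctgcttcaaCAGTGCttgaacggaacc
Ftl1 5′ UTR: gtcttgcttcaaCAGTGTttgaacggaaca
Slc40a1 5′ UTR: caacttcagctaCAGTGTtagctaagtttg
Tfrc 3′ UTR, site 1: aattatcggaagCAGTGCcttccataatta
Tfrc 3′ UTR, site 2: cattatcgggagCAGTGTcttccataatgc
Tfrc 3′ UTR, site 3: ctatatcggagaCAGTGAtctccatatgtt
Tfrc 3′ UTR, site 4: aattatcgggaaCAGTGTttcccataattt
The Fth1 site lies in exon 1 at chr19:9982732-9982761 on the plus strand, the Ftl1 site in exon 1 at chr7:45459778-45459807 on the minus strand, and the Slc40a1 site in exon 1 at chr1:45925464-45925493 on the minus strand. The 4 Tfrc sites lie in exon 19 between chr16:32631219 and 32631739 on the plus strand. Such a site was found in 160 of 21901 genes searched (0.731%). It acts on translation or RNA stability in the known biology, and UMI counts measure RNA alone. Ftl1-ps1, a near copy of Ftl1 on chromosome 13, holds the same 30 bases as Ftl1. Reads that fit both genes cannot be assigned to either by sequence.

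Mt1 and Mt2 lie side by side on chromosome 8 on the plus strand, Mt2 at chr8:94172664-94173568 in GRCm38 and Mt1 at chr8:94179082-94180327, with 5513 bases between them. Windows before their RefSeq starts, labelled promoters below, are shown because their RNA went together over cells and classes. The windows are the 250 bases before the RefSeq start in GRCm38.p6, and capitals mark matches on either strand to TGCNCNC, a loosened form of the core of the metal response element that MTF1 binds.
Mt2 promoter: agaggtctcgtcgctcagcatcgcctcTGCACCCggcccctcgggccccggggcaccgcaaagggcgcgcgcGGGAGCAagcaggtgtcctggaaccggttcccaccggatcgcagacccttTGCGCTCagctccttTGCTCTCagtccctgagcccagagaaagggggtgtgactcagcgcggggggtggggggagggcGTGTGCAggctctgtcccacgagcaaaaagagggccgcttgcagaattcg
Mt1 promoter: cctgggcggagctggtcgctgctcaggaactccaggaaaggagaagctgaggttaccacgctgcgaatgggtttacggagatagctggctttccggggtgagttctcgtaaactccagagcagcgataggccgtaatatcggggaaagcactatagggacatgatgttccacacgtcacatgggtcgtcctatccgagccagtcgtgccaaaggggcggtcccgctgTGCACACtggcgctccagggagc
The Mt2 window, chr8:94172368-94172617, held 5 matches, with 3 on the plus and 2 on the minus strand. The Mt1 window, chr8:94178839-94179088, held 1. Of 32851 windows of this length, 44.4% held at least 1 match and 4.65% at least 3, so a single match is common among such windows. The counts hold for these windows alone, since bases further upstream or after the annotated start were not searched. They are no count of all metal response elements of either gene. The Mt1 window runs past the GENCODE start of Mt1 given above, and the Mt2 window ends before that of Mt2. The windows thus do not lie alike to the genes, and their counts of matches do not compare the promoters.

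In both libraries the ferritin chains were highest in myeloid cells, Mt1 was high in progenitor-like fibroblasts, macrophages and luminal cells, Mt2 was highest in progenitor-like fibroblasts, and both metallothioneins were low in lymphocytes. Hmox1 and Slc11a1 were highest in macrophages and neutrophils of PyMT and in macrophages of Met-1, with Slc11a1 of Met-1 neutrophils close to the macrophage level. Between the tumours, Ftl1 was lower in Met-1 than in PyMT in every class compared, Mt2 was lower in fibroblasts, macrophages and luminal cells, and Hmox1 was lower in macrophages and neutrophils. The luminal Mt2 difference rested on few cells, as 9 of 90 PyMT luminal cells held 90.4% of the Mt2 UMIs there. Fth1 lay close to equal in macrophages, T cells and B cells.

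**Figure D1:**
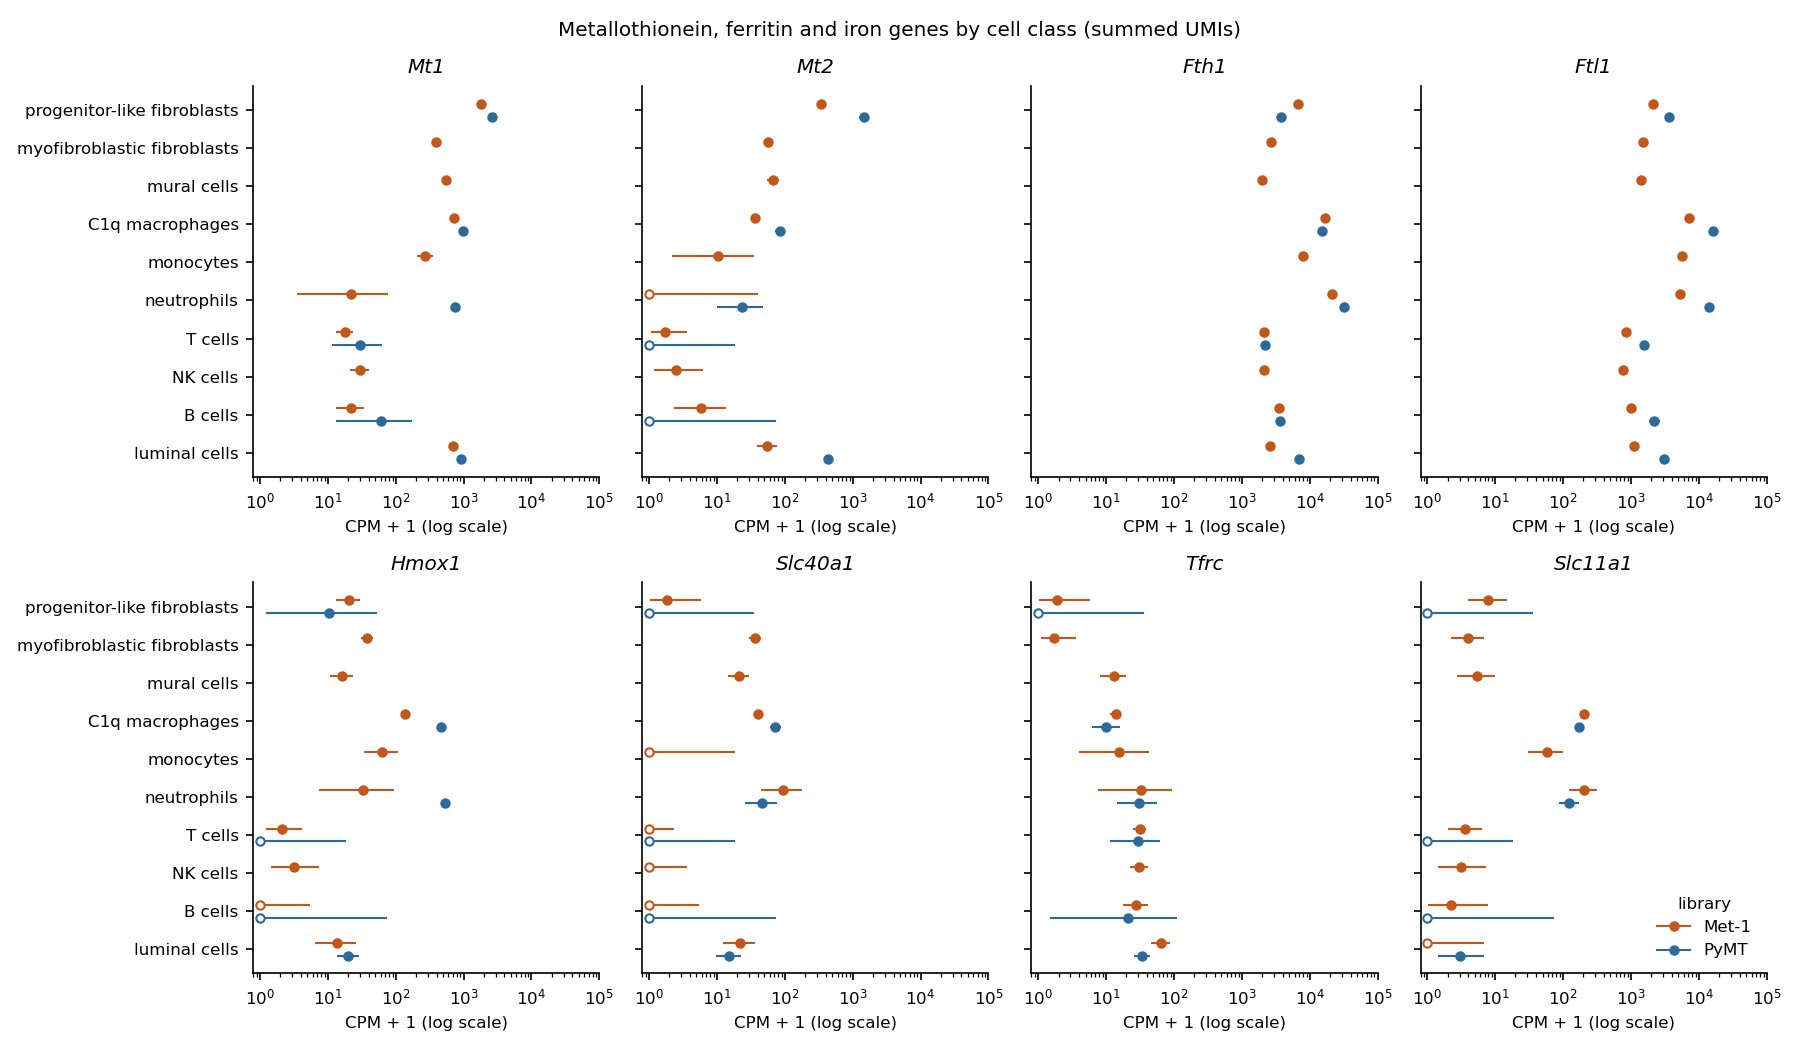
CPM + 1 of each gene (log scale) by cell class, with orange points for Met-1 and blue for PyMT, open points for 0 UMIs and bars for 95% counting intervals. Fth1 and Ftl1 lie furthest right in myeloid cells. Classes with under 20 PyMT cells have no blue point, except progenitor-like fibroblasts, drawn from 9 PyMT cells.

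Fibroblasts were divided by marker UMIs into a progenitor-like state (Clec3b, Pi16, C3 and Dpp4; 85 Met-1 and 9 PyMT cells) and a myofibroblastic state (Cilp, Thbs4, Tnc and Col12a1; 136 and 2 cells). Within Met-1, Mt1 stood at 1801 CPM (1724 to 1880.5) in the progenitor-like and 396 CPM (373 to 421) in the myofibroblastic state, and at 547 CPM (511 to 584) in mural cells. Mt2 stood at 347 CPM (313 to 382) in the progenitor-like state, 56.4 CPM (47.9 to 66.1) in the myofibroblastic state and 66.5 CPM (54.5 to 80.5) in mural cells. Both metallothioneins were thus highest in the progenitor-like state, and the last pair of Mt2 intervals overlap. After thinning every cell to 1000 UMIs, an Mt1 UMI was present in 53.1% (41.7 to 64.3) of progenitor-like and 23.5% (16.7 to 31.6) of myofibroblastic Met-1 cells, where 4 and 0 shallower cells were left out, against 82.4% and 72.8% without thinning. T cells, which stand here for background from free RNA, had one in 1.31% (0.358 to 3.32) at that depth and in 13.4% without thinning. Median depths were 13024, 20668 and 8033 UMIs in these 3 classes.

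The 11 PyMT fibroblasts held 356 Mt1 and 165 Mt2 UMIs, and 1 cell carried 157 and 73 of these. Mt1 per cell ran from 0 in 2 cells over a median of 1535 CPM to 11079 CPM, and Mt2 from 0 in the same 2 cells over 845 CPM to 5151 CPM. The 2 cells at 0 were 1 of each state. Among Met-1 progenitor-like cells, the lowest Mt1 value was 0, the median 709.9 CPM and the highest 8765 CPM, and 22 of 85 lay at or above the median of 1535 CPM of the 9 PyMT progenitor-like cells. For Mt2, 9 of 85 Met-1 progenitor-like and 0 of 136 myofibroblastic cells reached the PyMT median of 944 CPM. The libraries therefore overlapped for both genes in the progenitor-like state.

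Over all fibroblasts, Mt1 stood at 805 CPM (777 to 834) for Met-1, against 2889.9 CPM (2597 to 3206) for PyMT, a ratio of 0.279 (0.250 to 0.312) for Met-1 over PyMT. Mt2 stood at 141 CPM (129.7 to 153.5) and 1339 CPM (1143 to 1560), a ratio of 0.105 (0.0885 to 0.126). The state mix went with this, since 9 of 11 PyMT but 85 of 230 Met-1 fibroblasts were progenitor-like. In the progenitor-like state alone, the ratio was 0.691 (0.609 to 0.786) for Mt1, at 1801 and 2608 CPM, and 0.239 (0.198 to 0.2898) for Mt2, at 347 and 1449.8 CPM. Leaving out, in each library, the cell with most UMIs of the gene turned the log2 ratio of Mt1 in this state to 0.33, where it was -0.53 with all cells, and that of Mt2 to -1.43, where it was -2.03. Leaving out the PyMT cell alone, a setting chosen after seeing the data, gave 0.46 for Mt1 and -1.32 for Mt2. The median cell went the other way for Mt1, at 709.9 CPM over 85 cells for Met-1, against 1195 CPM over the 8 PyMT cells left. Mt2 was thus lower in Met-1 with and without that cell, while for Mt1 the direction of the summed level turned on 1 PyMT cell and that of the medians did not.

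**Figure D2:**
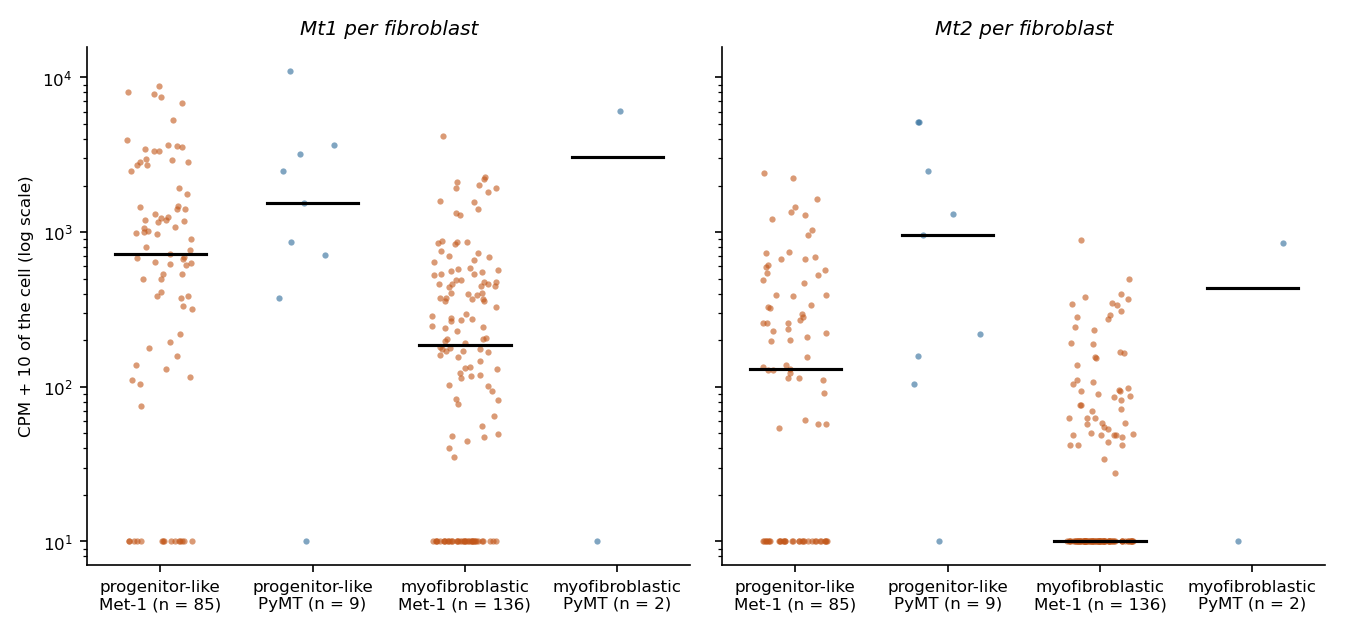
Mt1 (left) and Mt2 (right) in each fibroblast as CPM of the cell plus 10 (log scale), by state and library, with bars at the medians and cells without a UMI at 10. The Met-1 progenitor-like median of Mt1 is 709.9 CPM and the PyMT one 1535 CPM, and 1 PyMT cell stands at 11079 CPM.

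Mt1 and Mt2 went together from cell to cell. Over 230 Met-1 fibroblasts, the Pearson correlation of the log values was 0.727 (Spearman 0.699), and within the progenitor-like state it was 0.728 over 85 cells. It was 0.685 over 90 PyMT luminal cells and 0.432 and 0.423 over 808 Met-1 and 185 PyMT macrophages. The cells of each value share a library, and depth went with detection, as Met-1 fibroblasts with an Mt1 UMI had a median of 18315 UMIs and those without 9250.

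Macrophages had Mt1 at 713 CPM (693 to 733) for Met-1, against 987 CPM (939.8 to 1037) for PyMT, a ratio of 0.722 (0.683 to 0.764). Mt2 in these cells was 35.9 CPM (31.6 to 40.6) and 85.0 CPM (71.5 to 100.4), a ratio of 0.422 (0.341 to 0.523), and 20.9% of the PyMT UMIs lay in 1 cell. The log2 ratio of Mt2 was -1.05, and -0.90 once the cell richest in Mt2 was left out of both libraries. Luminal cells had Mt1 at 703 CPM (639 to 772) for Met-1, against 906 CPM (858 to 956) for PyMT, a ratio of 0.776 (0.695 to 0.866). Of the Mt1 UMIs, 25.8% lay in 1 cell for Met-1, against 29.8% for PyMT. The median luminal cell went the other way, at 372 CPM of Mt1 for Met-1, against 236 CPM for PyMT. Mt2 in luminal cells stood at 54.6 CPM (37.8 to 76.3) and 439.7 CPM (406 to 475), a ratio of 0.124 (0.0853 to 0.175). The PyMT luminal Mt2 UMIs were 43.7% in 1 cell and 90.4% in 9 of 90 cells. Without the luminal cells that held a C1q UMI, a setting chosen after seeing the data, 19 of 33 Met-1 and 22 of 90 PyMT cells were left. Deeper cells are likelier to hold such a UMI, so the setting also picks cells by depth, and the part of depth was not tested. Mt1 was then 738 CPM (640 to 846) for Met-1 and 352 CPM (274 to 446) for PyMT, so it turned to higher in Met-1. Mt2 was 43.2 CPM (22.3 to 75.5) and 76.6 CPM (42.9 to 126) on 12 and 15 UMIs. These Mt2 intervals overlap, so in the cells left a difference of Mt2 was not clear of counting error.

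In neutrophils Mt1 was lower in Met-1 at a ratio of 0.0278 (0.00335 to 0.102), the widest difference of a metallothionein in the classes compared. The 37 Met-1 neutrophils held 2 Mt1 UMIs, both in 1 cell, or 21.1 CPM (2.55 to 76.1), and the 173 PyMT neutrophils 233 UMIs, or 758 CPM (663 to 861). A UMI was present in 3.12% (0.0791 to 16.2) of cells from Met-1, against 22.2% (16.1 to 29.4) from PyMT, at 1000 UMIs, with 5 and 11 cells left out, and in 2.70% and 30.6% unthinned, at median depths of 2698 and 1636 UMIs. The 9 macrophage markers summed to 379 CPM for Met-1, against 436 CPM for PyMT neutrophils, which is 1.99% and 2.15% of their level in macrophages, while Mt1 of PyMT neutrophils was 76.7% of that in PyMT macrophages. Without cells that held a C1q UMI, Mt1 was 0 in 27 Met-1 neutrophils and 683 CPM (576 to 805) in 126 PyMT neutrophils. The part of macrophage RNA in the neutrophil Mt1 values was not tested. Mt1 in T, NK and B cells of Met-1 lay between 16.95 and 28.5 CPM, and Mt2 between 0.737 and 4.86 CPM. These are the levels at which free RNA cannot be told apart from transcription in the cell.

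The shares of the metallothioneins also differed between the tumours. Mt1 made up 85.1% (83.9 to 86.2) of Mt1 and Mt2 UMIs in Met-1 fibroblasts and 68.3% (64.1 to 72.3) in PyMT fibroblasts. In luminal cells the shares were 92.8% (90.1 to 94.96) and 67.3% (65.2 to 69.4), and in macrophages 95.2% (94.6 to 95.8) and 92.1% (90.7 to 93.3). Few cells weighed on the PyMT shares. There, 1 fibroblast held 44.1% of Mt1 and 44.2% of Mt2 UMIs, and 1 luminal cell held 43.7% of Mt2 UMIs. Luminal cells without a C1q UMI held 205 Mt1 and 12 Mt2 UMIs in Met-1, and 69 and 15 in PyMT. UMIs count molecules and were not scaled to transcript length. An antisense gene that overlaps Mt2, Gm45774, had 1 UMI in Met-1 and 0 in PyMT. Whether the counting used strand is not stated in the sources used here.

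Ferritin RNA was present in nearly every cell, with an Fth1 UMI in 99.1% of Met-1 and 99.8% of PyMT cells. Fth1, the heavy chain, stood in Met-1 at 21202 CPM (20286 to 22149) in neutrophils, 16924 CPM (16828 to 17021) in macrophages, 8082 CPM (7701 to 8476) in monocytes and 6732 CPM (6582 to 6884) in progenitor-like fibroblasts. Then came B cells at 3587 CPM, myofibroblastic fibroblasts at 2687 CPM and luminal cells at 2631 CPM, and last T, NK and mural cells at 2160.0, 2123 and 1989 CPM. The intervals of T and NK cells overlapped, as did those of myofibroblastic and luminal cells. In PyMT the order was neutrophils at 32429 CPM (31795 to 33071), macrophages at 15097 CPM (14909 to 15286), luminal cells at 6878 CPM (6744 to 7013), progenitor-like fibroblasts at 3794 CPM (3432 to 4183), B cells at 3679 CPM (3169 to 4247) and T cells at 2233 CPM (2036 to 2444). Neutrophils led in both tumours, and luminal cells stood higher in the PyMT order than in the Met-1 one.

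Between the tumours, the Fth1 ratio of Met-1 over PyMT was 1.12 (1.11 to 1.14) in macrophages, 0.967 (0.881 to 1.06) in T cells and 0.975 (0.840 to 1.14) in B cells. It was 0.654 (0.623 to 0.686) in neutrophils and 0.382 (0.363 to 0.403) in luminal cells. Over all fibroblasts it was 1.05 (0.953 to 1.15). In progenitor-like fibroblasts it was 1.77 (1.61 to 1.97), where the 9 PyMT cells ran from 2408 to 7030.2 CPM with a median of 3434 CPM, and the 85 Met-1 cells had a median of 4991 CPM and a highest value of 30938 CPM. The progenitor-like state thus had the highest Fth1 ratio of these classes, and its cells overlapped between the libraries. In luminal cells, macrophage markers summed to 324 CPM for Met-1, against 215 CPM for PyMT, and neutrophil markers to 62.6 CPM for Met-1, against 176 CPM for PyMT. Their part in the luminal Fth1 values was not tested.

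Ftl1, the light chain, was lower in Met-1 in every class compared. It stood at 7174 CPM (7111 to 7237) for Met-1, against 16354 CPM (16159 to 16551) for PyMT macrophages, a ratio of 0.439 (0.432 to 0.445). In neutrophils it was 5306 CPM (4853 to 5789.98) and 14179 CPM (13761 to 14606), a ratio of 0.374 (0.341 to 0.410). In luminal cells it was 1111 and 3084 CPM, a ratio of 0.360 (0.332 to 0.390). The ratio was 0.448 (0.407 to 0.493) in all fibroblasts, 0.580 (0.521 to 0.648) in the progenitor-like state, 0.556 (0.495 to 0.626) in T cells and 0.460 (0.377 to 0.565) in B cells. Macrophage markers in T cells summed to 98.4 CPM for Met-1 and 133 CPM for PyMT, and their part in the lymphocyte values was not tested. The difference thus spanned stromal, myeloid, lymphoid and epithelial cells. As all classes of a tumour share a library, a property of the library and of the tumour cannot be told apart.

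To read this against other genes, all genes with at least 50 UMIs in both libraries in each of 6 classes were taken, 84 in all. PyMT B cells held 50556 UMIs in total, so only abundant RNAs could pass, and the 84 do not stand for all genes. Of these, 26 (30.95%) were lower in Met-1 in every class and 13 were higher in every class. The mean log2 ratio over the classes was lower than that of Ftl1 for 0 of the 84 genes. The log2 ratio of Ftl1 ran from -1.46 to -0.84 over the classes, and that of Fth1 from -1.38 to 0.16. The near copy Ftl1-ps1, with too few UMIs to be among the 84, was lower in Met-1 too. It stood at 45.2 CPM for Met-1, against 192.7 CPM for PyMT macrophages, a ratio of 0.234 (0.200 to 0.275), below that of Ftl1. It amounted to 0.629% and 1.18% of the Ftl1 UMIs, so moving all of its counted UMIs to Ftl1 would change little. Reads that fit both genes and were not counted are not covered by this.

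The chains therefore stood in another proportion. There were 2.36 Fth1 UMIs per Ftl1 UMI (2.33 to 2.38) in Met-1 macrophages and 0.923 (0.907 to 0.939) in PyMT macrophages. In progenitor-like fibroblasts the values were 3.17 (3.03 to 3.32) and 1.04 (0.901 to 1.20), in neutrophils 3.996 (3.62 to 4.41) and 2.29 (2.21 to 2.37), and in T cells 2.51 (2.39 to 2.63) and 1.44 (1.25 to 1.66). Luminal cells were the exception, with 2.37 (2.16 to 2.59) in Met-1 and 2.23 (2.15 to 2.31) in PyMT, where both chains were lower in Met-1 by similar factors. Within Met-1 fibroblasts the proportion was 1.80 (1.73 to 1.87) in the myofibroblastic state, against 3.17 in the progenitor-like state. Both chains together took 2.41% of macrophage UMIs in Met-1 and 3.15% in PyMT, and 2.65% and 4.66% of neutrophil UMIs.

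**Figure D3:**
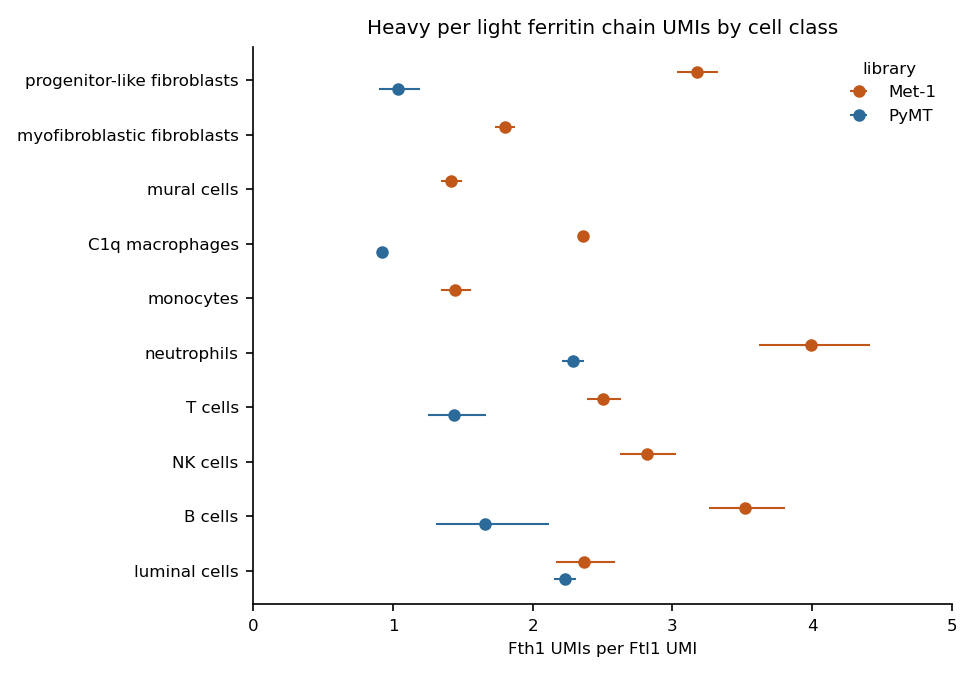
Fth1 UMIs per Ftl1 UMI by cell class, with orange points for Met-1, blue for PyMT and bars for 95% counting intervals. Met-1 lies to the right of PyMT in every class with both points, by 2.36 against 0.923 in macrophages, and luminal cells lie closest, at 2.37 and 2.23.

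Hmox1, which frees iron from haem, was highest in macrophages of Met-1 and in neutrophils and macrophages of PyMT. It stood at 136 CPM (127 to 145) in Met-1 macrophages and 467 CPM (434 to 501) in PyMT macrophages, a ratio of 0.291 (0.264 to 0.320). Single cells weighed on the PyMT value, where 1 cell held 193 of 763 UMIs and 18 of 185 cells held 79.4%. In Met-1, 91 of 950 UMIs lay in 1 cell. The log2 ratio was -1.71 with all cells and -1.45 without the richest cell of both libraries. At 1000 UMIs, 8.09% (6.29 to 10.2) of macrophages from Met-1, against 13.5% (8.94 to 19.3) from PyMT, held a UMI, with 17 and 0 cells left out, against 41.2% and 54.1% unthinned at medians of 7650.0 and 7476 UMIs, and these intervals overlap. The T cell share at that depth was 0 of 305 cells in Met-1.

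In neutrophils Hmox1 had 3 UMIs in 37 Met-1 cells, or 31.6 CPM (6.51 to 92.3), and 166 UMIs in 173 PyMT cells, or 539.7 CPM (461 to 628). The ratio was 0.0585 (0.0119 to 0.174). Hmox1 of PyMT neutrophils thus stood at 116% of its level in PyMT macrophages, beside 2.15% for the macrophage markers. Without the cells that held a C1q UMI it was 42.4 CPM for Met-1, with 3 UMIs, against 449 CPM (363 to 549.7) for PyMT. The 52 PyMT neutrophils with an Hmox1 UMI had 75174 CPM of neutrophil markers and 475 CPM of macrophage markers, and the 121 without one had 79798 and 416 CPM. A C1q UMI was held by 19 of the 52 cells with Hmox1 and by 28 of the 121 without, and by 22 of 53 PyMT neutrophils with Mt1 and 25 of 120 without. Cells with Hmox1 or Mt1 were also deeper, at medians of 1789.5 against 1540 UMIs and 1903 against 1497 UMIs, and the part of macrophage RNA was not tested. In fibroblasts Hmox1 was 32.1 CPM (26.7 to 38.2) for Met-1, against 16.2 CPM for PyMT with 2 UMIs, and within Met-1 it was 37.3 CPM in the myofibroblastic and 19.3 CPM in the progenitor-like state.

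Slc40a1 encodes ferroportin, the sole known iron exporter of mammalian cells. It stood at 39.2 CPM (34.7 to 44.1) for Met-1, against 71.6 CPM (59.2 to 85.8) for PyMT macrophages, a ratio of 0.547 (0.439 to 0.685). Neutrophils had 94.7 CPM (43.3 to 179.9) in Met-1 from 9 UMIs and 45.5 CPM (24.9 to 76.4) in PyMT from 14 UMIs, with overlapping intervals. In Met-1 fibroblasts it lay in the myofibroblastic state at 35.4 CPM (28.7 to 43.2), with 96 UMIs, against 0.875 CPM in the progenitor-like state, with 1 UMI. Mural cells had 20.1 CPM (13.7 to 28.3). Met-1 fibroblasts as a whole had 25.7 CPM (20.9 to 31.2) and the 11 PyMT fibroblasts 0 UMIs, where a count of 0 allows up to 24.4 CPM (3 counts over the 11 cells together) and the 95% limit is 29.9 CPM. That limit lies within the Met-1 interval, so a difference was not detectable at this depth. As 9 of the 11 PyMT cells were of the state with 1 UMI in Met-1, the libraries are not compared in like cells. T and B cells had 0 UMIs of Slc40a1 in both libraries.

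Hmox1 and Slc40a1 are both tied to haem iron, and their values per macrophage correlated weakly. Pearson's correlation of the log values was 0.0899 over 808 Met-1 macrophages and 0.377 over 185 PyMT macrophages. Macrophages with an Hmox1 UMI had 49.3 CPM of Slc40a1 in Met-1 and 90.9 CPM in PyMT, and those without 27.7 and 29.3 CPM. Cells with an Hmox1 UMI were deeper, at medians of 9641 and 10669 UMIs against 6558 and 4963, and the part of depth was not tested.

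Tfrc, the receptor that brings in iron bound to transferrin, was spread over lymphocytes, neutrophils and luminal cells at low levels. In Met-1 it was highest in luminal cells at 62.6 CPM (44.5 to 85.6), followed by neutrophils at 31.6 CPM from 3 UMIs, T cells at 30.2 CPM (24.03 to 37.5), NK cells at 29.96 CPM (21.5 to 40.6) and B cells at 26.7 CPM (16.8 to 40.5), whose intervals overlap. Macrophages had 12.9 CPM (10.3 to 15.8), mural cells 11.9 CPM and fibroblasts 0.764 CPM, with 3 UMIs in 230 cells. In PyMT it was 33.3 CPM (24.6 to 44.0) in luminal cells, 29.3 CPM (13.4 to 55.5) in neutrophils, 28.4 CPM (10.4 to 61.9) in T cells and 9.18 CPM (5.14 to 15.1) in macrophages, and fibroblasts had 0 UMIs. The ratio of Met-1 over PyMT was 1.06 (0.468 to 2.98) in T cells, 1.40 (0.806 to 2.61) in macrophages and 1.88 (1.20 to 2.92) in luminal cells, the last with 39 and 49 UMIs. Of the 39 Met-1 luminal UMIs, 13 lay in 1 of 33 cells, and without the richest cell of each library Tfrc was 47.3 CPM for Met-1, against 30.6 CPM for PyMT. The mean of the luminal cells' own CPM was 32.9 for Met-1, against 24.04 for PyMT. In T cells of Met-1 with at least 3 UMIs of cell cycle genes, 25 cells, Tfrc stood at 57.8 CPM (37.0 to 86.0), and in the 224 T cells with 0 such UMIs at 19.7 CPM (13.6 to 27.7). Median depths were 16817 and 6970.5 UMIs, and the part of depth was not tested.

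Slc11a1, which moves iron and manganese out of phagosomes, was a gene of macrophages and neutrophils and differed little between the tumours. It stood at 202 CPM (192 to 213) for Met-1, against 171 CPM (151 to 192) for PyMT macrophages, a ratio of 1.19 (1.04 to 1.35). Neutrophils had 200.02 CPM (120.4 to 312) and 124 CPM (87.4 to 169.6), a ratio of 1.62 (0.882 to 2.88) on 19 and 38 UMIs. Monocytes of Met-1 had 57.2 CPM, every lymphoid and stromal class of Met-1 at most 7.001 CPM, and luminal cells 0 UMIs in Met-1 and 3 UMIs in PyMT. At 1000 UMIs, 18.7% (16.1 to 21.6) of macrophages from Met-1, against 12.4% (8.05 to 18.1) from PyMT, held a UMI, and 66.5% and 57.3% unthinned.

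A gene was counted as apart where CPM + 10 differed by 2-fold or more between the tumours and 1 library or both had 50 summed UMIs. Over all kept cells 0 of the 8 genes stood higher in Met-1 and 3 lower, where 7.01% of 11980 genes were higher and 3.59% lower, but this sum also carries the different mix of classes. In macrophages 0 of 8 were higher and 3 lower (Mt2, Ftl1 and Hmox1), where 5.52% of 8350 genes were higher and 1.26% lower. In neutrophils 0 of 4 that passed the count minimum were higher and 3 lower (Mt1, Ftl1 and Hmox1), where 5.11% of 880 genes were higher and 18% lower. In luminal cells 0 of 4 were higher and 3 lower (Mt2, Fth1 and Ftl1), where 4.71% of 4037 genes were higher and 7.85% lower. In fibroblasts 1 of 6 was higher (Slc40a1, on 0 PyMT UMIs and within counting error) and 3 lower (Mt1, Mt2 and Ftl1), where 21.2% of 7800 genes were higher and 4.99% lower. In the progenitor-like state 0 of 4 were higher and 1 lower (Mt2), where 16.4% of genes were higher and 4.96% lower. In T cells 0 of 3 were apart, where 10.3% of genes were higher and 2.9% lower, and in B cells 1 of 2 was lower (Ftl1), where 21.9% were higher and 5% lower. A gene low in 1 library passed the minimum only through the other, so the counts of genes that passed are no count of all 8. The median log2 ratio of the 8 genes in macrophages was -0.60, and that of all 8350 genes tested there 0.16.

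**Figure D4:**
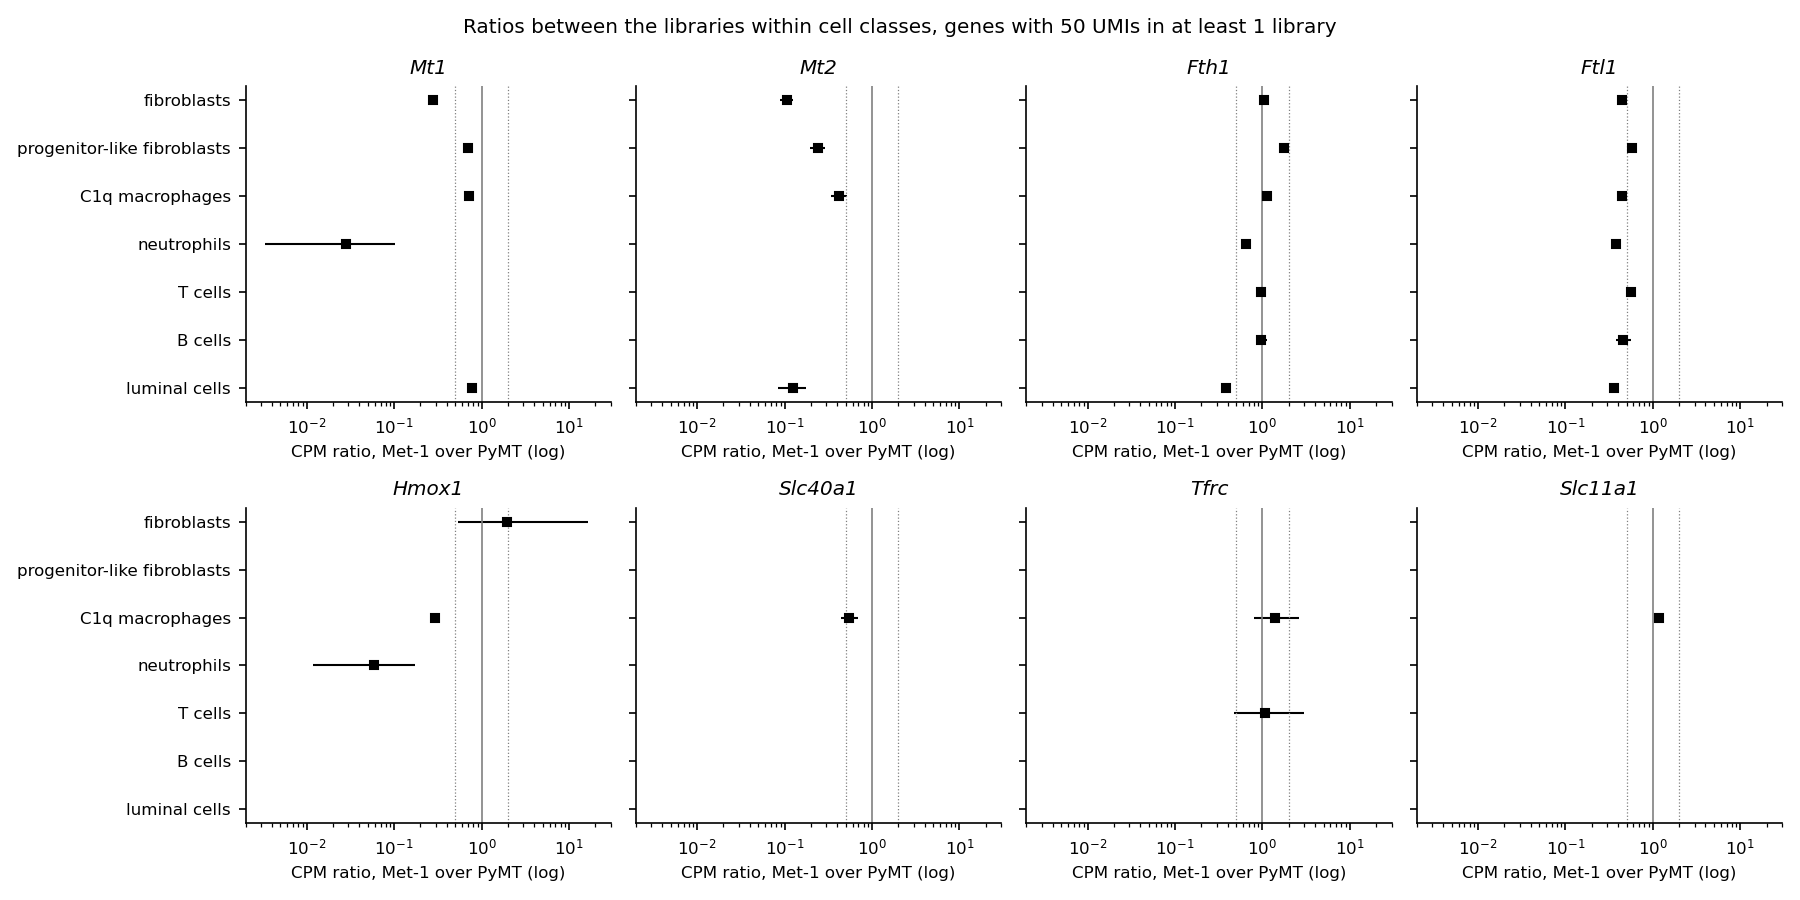
Ratio of CPM, Met-1 over PyMT (log scale), in each class for genes with 50 UMIs in at least 1 library, with 95% counting intervals, a solid line at 1 and dotted lines at 2-fold either way. Ftl1 lies left of 1 in every class, Fth1 lies on both sides, and Slc40a1 in fibroblasts is not drawn because PyMT had 0 UMIs.

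Of 58 other genes of iron, haem, zinc and NRF2 metabolism in 7 lists, 37 passed the count minimum in macrophages, with 1 above and 2 below PyMT by that rule, where 5.52% of all genes tested were higher and 1.26% lower. Their median log2 ratio was -0.11, and that of all genes 0.16. Bach1, the haem-sensing repressor of Hmox1, was higher in Met-1 at 129.9 CPM against 48.9 CPM in PyMT, a ratio of 2.65 (2.11 to 3.38). Slc39a1, a zinc importer, was lower at 39.9 CPM against 135 CPM, a ratio of 0.295 (0.246 to 0.353). Lcn2, which binds bacterial iron carriers, was lower at 4.43 CPM against 62.4 CPM. Lcn2 was highest in luminal cells, at 8463 CPM for Met-1, against 9248 CPM for PyMT luminal cells, and luminal markers in macrophages summed to 29.9 CPM for Met-1, against 146 CPM for PyMT. PyMT T and B cells, which should lack the gene, read 56.9 CPM (29.4 to 99.4) and 59.3 CPM (12.2 to 173) of Lcn2 from 12 and 3 UMIs, and the PyMT macrophage interval of 50.9 to 75.8 CPM overlaps both. The part of free RNA was not tested.

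On the CPM + 10 scale the other tested list genes were under 2-fold apart in macrophages. Uptake and reduction had 5 genes tested with 0 higher and 1 lower. Trf, which encodes the iron carrier transferrin, stood at 481 CPM for Met-1, against 499 CPM for PyMT, Hfe, which binds the transferrin receptor, at 59.9 and 73.4 CPM, and the metal importer Slc39a14 at 12.1 and 5.51 CPM. Iron regulation and chaperones had 6 tested and 0 apart. Ncoa4, which carries ferritin to the lysosome, stood at 49.3 and 66.7 CPM, the iron chaperones Pcbp1 and Pcbp2 at 152 and 185 CPM and at 245 and 269 CPM, and Ireb2 and Fbxl5, an iron regulatory protein and its ligase adaptor, at 26.3 and 15.3 CPM and at 37.4 and 36.1 CPM. Haem genes had 9 tested, 1 higher and 0 lower. The haem transporter Slc48a1 stood at 40.0 and 70.4 CPM and the red pulp macrophage factor Spic at 9.29 and 15.3 CPM. The receptor Lrp1, which takes up haem bound to hemopexin, stood at 104 and 59.3 CPM. Haptoglobin, Hp, was below the count minimum with 5 and 20 UMIs and is not among the tested genes. It stood at 0.714 and 12.2 CPM.

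Mitochondrial iron genes had 3 tested and 0 apart, with the mitochondrial iron importers Slc25a37 at 10.1 and 8.56 CPM and Slc25a28 at 39.2 and 19.0 CPM. Zinc genes had 4 tested, 0 higher and 1 lower. Mtf1 itself, the zinc sensor, stood at 18.1 CPM for Met-1, against 12.8 CPM for PyMT macrophages, the zinc exporter Slc30a1 at 10.0 and 4.28 CPM and the importer Slc39a10 at 9.43 and 12.2 CPM. Genes of the NRF2 response had 10 tested and 0 apart, with Prdx1 at 1088 and 1468 CPM, the cystine importer Slc7a11 at 38.6 and 63.6 CPM, glutathione reductase, Gsr, at 44.2 and 64.8 CPM, Gclc of glutathione synthesis at 28.9 and 22.6 CPM, and Keap1, the inhibitor of NRF2, at 45.2 and 35.5 CPM. Export and oxidation had 0 genes tested in macrophages. Ceruloplasmin, Cp, was a gene of luminal cells, at 366 CPM for Met-1, against 369.7 CPM for PyMT, and of progenitor-like fibroblasts of Met-1, at 142 CPM with 0 UMIs in PyMT, and Heph, another iron oxidase, was at most 6.13 CPM in classes of at least 20 cells.

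Outside macrophages, 8 list genes were higher and 2 lower of 35 tested in fibroblasts, where 21.2% of all genes tested were higher and 4.99% lower. In neutrophils 0 were higher and 2 lower of 11, beside 5.11% and 18% of all genes. In T cells 2 were higher and 1 lower of 17, beside 10.3% and 2.9%, in B cells 0 and 0 of 4, beside 21.9% and 5%, and in luminal cells 1 and 2 of 16, beside 4.71% and 7.85%. These counts lie near the shares of all genes and are no result about the lists. Trf in luminal cells was lower in Met-1, at 3336 CPM against 7665 CPM in PyMT, a ratio of 0.435 (0.415 to 0.456). Ncoa4 in T cells stood at 33.9 and 85.3 CPM, a ratio of 0.397 (0.238 to 0.6999) on 92 and 18 UMIs.

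Profiles over 13 classes with at least 30 cells each, 9 of Met-1 and 4 of PyMT, were compared among 8987 genes with at least 200 UMIs by Pearson's correlation of log2(CPM + 10). These classes share libraries, so the values describe and are not tested. Closest to Mt1 were Tmco3 (0.927), Anxa3 (0.923) and Igsf8 (0.919), with Mt2 at 0.882. Closest to Mt2 were Cxcl1 (0.973), Nacc2 (0.927) and Idh1 (0.923). Fth1 was closest to Cxcl2 (0.940), Sdcbp (0.939) and Sat1 (0.937), and Ftl1 to its near copy Ftl1-ps1 (0.968), Sdcbp (0.960) and Ppt1 (0.952), with 0.923 between the chains themselves. Among the genes closest to Hmox1 were Atp6ap2 (0.947) and Spg21 (0.941), and it reached 0.929 with Ftl1. Slc40a1 was closest to Lamtor1 (0.918), Cyb5r1 (0.909) and Aldh3b1 (0.899), Tfrc to Cdc14a (0.881), Tes (0.876) and Rnf167 (0.874), and Slc11a1 to Cd300c2 (0.989), Tlr2 (0.988) and Arl11 (0.987). Tfrc stood apart from the rest, with correlations from -0.43 to -0.061 with the other 7 genes.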

How the data were processed

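Single-cell RNA of 2 libraries, 1 per group, was analysed. The unit is the UMI count per gene and barcode in the matrices the authors deposited, made with Cell Ranger 3.1.0 on mm10. The submitters' processing notes name both, and the file headers give the version too. The annotation release, the 10x chemistry and whether barcodes had been filtered are not given in the sources used here. Barcodes with at least 500 UMIs, 200 genes and at most 10% mitochondrial UMIs were kept, without Scrublet calls (scanpy 1.11.5), 25 in Met-1 and 2 in PyMT. The PyMT calls are 0.323% of 619 barcodes, and doublets may remain. The kept cells held 19774760 UMIs in Met-1 and 4291205 in PyMT.

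A cell entered a lineage with at least 3 UMIs over at least 2 of its markers and at least 80% of the marker UMIs of 6 lineages (stromal, myeloid, neutrophil, T or NK, B, luminal). Stromal, myeloid and T or NK cells were divided by marker UMIs again. By this rule 136 Met-1 and 40 PyMT cells were mixed and 43 and 20 unassigned, all left out of classes, and 331 and 64 cells lay near the limit, at 70% to 90%. Counts were summed per class and library, with Poisson intervals for levels, conditional binomial ones for ratios and Clopper-Pearson ones for shares of cells (exact, 95%), computed with scipy 1.17.1. The ratio step was tested on simulated data. In bulk of a class, fewer cells with a gene and less RNA per cell cannot be told apart, so both sums and shares of cells are given. Correlations between cells use log values per 10000 UMIs.

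Named genes are the 8 members, at most 2 highest and 2 lowest log2 ratios in macrophages and the 2 highest CPM of each list, and the 3 genes most like each member. Of the genes this rule names, 2 are not reported here. The near copy Ftl1-ps1 and the antisense Gm45774 are given because they can share reads. The members, lists and rules were chosen with earlier results of these data known. Alternatives changed the filters, the gate, the pseudocount, the centring, the totals, the count minimum and the top cell. Promoter windows are from RefSeq GRCm38.p6 and iron responsive elements from GENCODE M21.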

Additional observations from a re-analysis of the deposited data

Results flagged for a closer look

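The ratio of Fth1 between the tumours lay on opposite sides of 1 in 2 classes, with intervals clear of 1. It was 1.774 in progenitor-like fibroblasts, with 6732 CPM for Met-1, against 3794 CPM for PyMT, and 0.3825 in luminal cells, at 2631 and 6878 CPM. The difference between the classes was not tested, since each tumour is 1 library. The fibroblast value rests on 9 PyMT cells.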

How the results depend on the processing

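No paired analysis was possible because each group is 1 library with no replicate numbers, and for the same reason no replicate could be left out. Of 39 log2 ratios, calls changed for 4 after centring on the median log2 ratio of each class, for 1 under a stricter marker gate, for 3 without the top cell, for 2 of 8 without cells with a C1q UMI (chosen after seeing the data), and for 0 under the other 6 settings (20% mitochondrial UMIs, 1000 UMIs, Scrublet calls kept, a pseudocount of 1, 20 summed UMIs, other totals). No call reversed, but Mt1 in the progenitor-like state, under 2-fold apart, turned to 0.33 without the top cell of both libraries and 0.46 without that of PyMT alone (chosen after seeing the data). Centring subtracted the median log2 ratio of genes with 50 UMIs in both libraries, which was -0.41 in fibroblasts, -0.27 in progenitor-like cells, -0.23 in T cells, -0.25 in B cells and 0.14 in luminal cells. After centring, members apart in progenitor-like cells were 2 instead of 1, as Fth1 reached 1.09, and Ftl1 in fibroblasts was -0.75. The single B cell call, Ftl1, was lost (0 instead of 1) under the stricter gate (-0.85), centring (-0.86) and without the top cell (-0.90). Mt2 in macrophages was -0.90 without the top cell. Hmox1 in fibroblasts, on 2 PyMT UMIs, passed 2-fold at 1.09 after centring and without the top cell. In luminal cells without a C1q UMI, Mt1 was 1.05 and Mt2 -0.70. In fibroblasts the log2 ratio of Mt1 was -1.83, -0.53 in the progenitor-like state alone and -1.27 without the top cell, and that of Mt2 was -3.16, -2.03 and -2.58. Pathway genes apart were 6 in macrophages with a pseudocount of 1 (3 with 10) and 1 in T cells under the stricter gate (3 with the main one). The cause of these changes was not tested. Depth limits Slc40a1, Tfrc and Slc11a1 most, with 156, 104 and 337 UMIs in all kept PyMT cells.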

Other observations

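Barcodes above the mitochondrial limit, 316 in Met-1 and 27 in PyMT, entered no class. They held Mt1 at 129 CPM (102 to 160) for Met-1, against 121 CPM (44.4 to 263) for PyMT, where all kept cells had 510 and 879 CPM. Ftl1 in them was 872 CPM (799.8 to 949) and 5221 CPM (4604 to 5897), and Fth1 2140.3 CPM and 15339 CPM. Tfrc in them was 52.2 CPM (35.7 to 73.6) in Met-1, against 17.2 CPM in kept cells, and 40.3 CPM in PyMT from 2 UMIs, against 24.2 CPM.

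Among Met-1 macrophages, the 69 cells with at least 3 cell cycle UMIs had Mt2 at 19.4 CPM (11.7 to 30.3) and Slc40a1 at 21.5 CPM (13.3 to 32.8). The 634 macrophages with 0 such UMIs had 40.5 CPM (35.1 to 46.5) and 38.1 CPM (32.8 to 43.9). Slc11a1 was 149 CPM (126 to 176) in the first and 217 CPM (204 to 230.2) in the second, and Ftl1 was 7218 CPM (7051 to 7389) in the first and 7203 CPM (7128 to 7278) in the second. Median depths were 11662 and 7247.5 UMIs. In PyMT, the 20 macrophages with at least 3 cell cycle UMIs had Ftl1 at 14169 CPM (13734 to 14615), against 16401 CPM (16154 to 16651) in the 132 with 0, at median depths of 12031 and 6608.5 UMIs. Slc11a1 was 156 CPM (113 to 209) and 169 CPM (144 to 196) in these, Slc40a1 53.1 CPM (29.7 to 87.6) and 69.2 CPM (54.1 to 87.3), and Mt2 17.7 CPM (5.75 to 41.3) and 76.0 CPM (60.1 to 94.9). The Mt2 and Ftl1 intervals are clear of each other in PyMT, and those of Slc11a1 and Slc40a1 overlap. Mt1 was lower in the cells with cell cycle UMIs, at 597 CPM (550 to 648) against 745 CPM (721 to 769) in Met-1. In PyMT it was 701 CPM (607 to 806) against 1013 CPM (952 to 1077). Fth1 went opposite ways, at 18430.5 against 16680.8 CPM in Met-1 and 13822.5 against 15571.5 CPM in PyMT. Hmox1 was 97.1 against 147 CPM in Met-1 and 439 against 535 CPM in PyMT, where its intervals overlap. The Mt2 value of the 20 PyMT cells rests on 5 UMIs. Of all Mt2 UMIs in PyMT macrophages, 20.9% lay in 1 cell, a spread between cells that the counting intervals do not cover.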
